A study of Mus musculus with 6 samples.

Results

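The genes described here are 9 components of gp130 cytokine and STAT3 signalling: the ligands Lif, Cntf, Il6 and Clcf1, the receptor chains Osmr, Lifr and Il6st, the transcription factor Stat3 and its feedback inhibitor Socs3. They were chosen by name from knowledge of the pathway, with earlier results of these data known. All 9 are among the 35485 genes listed for each sample. Of these 9, 7 passed the expression filter and were tested with 13670 genes in all. Lif and Il6 were too low to be tested.

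RNA-seq was performed on whole retinas of wild-type C57BL/6 mice at 12 weeks of age, 2 days after surgery. In the ONC group the optic nerve was crushed 2 mm behind the globe for 10 s, which injures retinal ganglion cells (RGCs) through their axons. In the sham group the nerve was exposed and not crushed. The 3 samples of either group were each made from 6 pooled retinas, so that single animals cannot be told apart and p-values measure the spread between pools. Exon reads per sample ranged from 17343945 to 20358008. ONC replicate 1 lay farther from the other 2 ONC samples than they lay from each other, and results that rest on it are also given without it.

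Cytokines of this family bind a receptor that contains gp130, the protein of Il6st. LIF and CNTF signal through gp130 with the LIF receptor chain (Lifr), oncostatin M signals through gp130 with Osmr, and IL-6 uses a pair of gp130 chains. The receptors activate JAK kinases, which phosphorylate STAT3. Phosphorylated STAT3 enters the nucleus and drives genes such as Socs3, whose protein then blocks the receptor. In the retina, Müller glia and astrocytes are known to respond to these cytokines, CNTF and LIF are known to protect photoreceptors and RGCs, and SOCS3 is known to restrain axon regrowth. RNA-seq measures the transcripts and not the phosphorylation of STAT3.

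Of the pathway genes, Stat3 was upregulated 1.25-fold after ONC, and no member reached the limits used for a differentially expressed gene (DEG), which were a false discovery rate (FDR, the Benjamini-Hochberg adjusted p over all genes tested) under 0.1 together with more than a 1.5-fold difference, up or down. Osmr was higher in every ONC sample than in every sham sample but did not pass the FDR. The shared receptor Il6st differed little between groups. Lif and Il6 had almost no reads in either group.

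To show where STAT3 could bind near the genes on which these results turn, the 250 bases before the transcription start of Socs3 and Stat3 are printed 5′ to 3′ on the strand of the gene, from RefSeq (GRCm38.p6). Capitals mark TTCNNNGAA, the usual STAT binding motif. This motif reads the same on both strands.

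Socs3, minus strand, chr11:117969367-117969616: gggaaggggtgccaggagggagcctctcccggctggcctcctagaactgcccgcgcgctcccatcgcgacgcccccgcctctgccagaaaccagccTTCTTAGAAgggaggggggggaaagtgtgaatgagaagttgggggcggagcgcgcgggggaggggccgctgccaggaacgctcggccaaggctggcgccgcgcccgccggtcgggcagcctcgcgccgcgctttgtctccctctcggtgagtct

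Stat3, minus strand, chr11:100939541-100939790: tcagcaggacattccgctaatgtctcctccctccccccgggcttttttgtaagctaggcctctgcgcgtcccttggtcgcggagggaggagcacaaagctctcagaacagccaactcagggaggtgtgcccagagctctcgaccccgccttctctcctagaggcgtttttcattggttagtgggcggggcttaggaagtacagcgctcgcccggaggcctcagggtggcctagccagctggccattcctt

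The motif was found once in the window of Socs3, where its first base lies at position -154 from the start site. No match was found in the window of Stat3. RefSeq windows were matched for 8 of the 9 members, and Socs3 was the 1 member with a match. Over all 32851 windows of the same length, 2306 (7.02%) held the motif. A match describes these letters and was not tested as a binding site.

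Levels between genes were compared as RPKM, in which exon reads are divided by the exon length of the gene and by the reads mapped in the sample. In both groups the order of mean RPKM from highest to lowest was Il6st, Stat3, Lifr, Cntf, Osmr, Socs3, Clcf1, Lif and Il6. In sham, the ranges of the neighbours Stat3 and Lifr overlapped, and so did those of Socs3 and Clcf1. In ONC, the ranges of Il6st and Stat3, of Socs3 and Clcf1, and of Lif and Il6 overlapped.

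**Figure D1:**
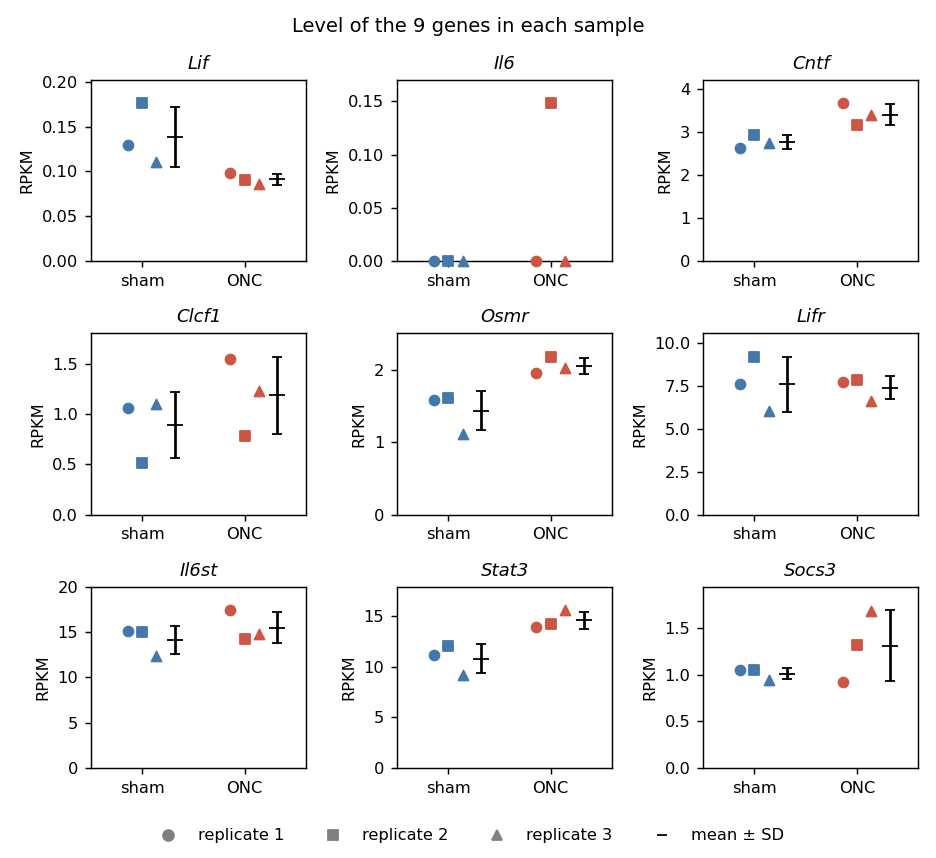
RPKM of each of the 9 genes (vertical axes, each from 0) in the 3 sham and 3 ONC samples, with circle, square and triangle for replicates 1, 2 and 3 and a bar for the mean ± SD, which is left out for Il6. In RPKM the groups do not overlap for Stat3, Osmr and Cntf, which are higher in ONC, and for Lif, which is lower. The share of all genes without overlap in RPKM was not counted. Under the scaling of RPKM, 76.7% of all genes tested had a log2 fold change above 0, against 52.3% in the main analysis. Cntf overlapped once library sizes were corrected for composition. Socs3 spreads from 0.926 to 1.69 in ONC, and Il6 is above 0 only in ONC replicate 2.

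Among the ligands, none was shown to change. Lif (chr11:4257568-4272514, with positions as in the files, which match GRCm38) had 12, 17 and 11 exon reads in the sham samples and 10, 9 and 9 in the ONC samples. The RPKM was 0.139 ± 0.0336 in sham and 0.0913 ± 0.00611 in ONC (SD, n = 3 each). The ONC values lay below the sham values, but only 1 of all these reads crossed an exon junction, in ONC replicate 3. Without the expression filter, edgeR gave a log2 fold change of -0.71 (SE 0.82, adjusted p = 0.753).

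Il6 (chr5:30013161-30019968), the inflammatory cytokine of the family, had 0 reads in 5 samples and 4 reads in ONC replicate 2. All 4 were junction reads, and the RPKM of that sample was 0.148. A count of 0 allows up to 3 reads, which corresponds to an RPKM of 0.106 to 0.12 in these samples and covers counting error only. An Il6 transcript was therefore detected in 1 of the 3 ONC pools near the limit of the depth, and no fold change is given.

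Cntf (chr19:12763528-12765632) had the highest RPKM of the 4 ligands. Its RPKM was 2.63, 2.94 and 2.75 in the sham samples and 3.67, 3.17 and 3.39 in the ONC samples, with means of 2.78 ± 0.157 and 3.41 ± 0.253 (SD, n = 3 each). The RPKM values of the groups did not overlap, whereas the TMM-normalized counts (exon reads divided by a library size corrected for composition) did. The log2 fold change was 0.18 (SE 0.23, 95% interval -0.3 to 0.65) and the test was not passed (edgeR, adjusted p = 0.75).

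Only 23.7% of the Cntf reads were mapped uniquely, whereas all reads of the other 8 members were. The unique reads were 12, 43 and 18 in sham and 23, 18 and 17 in ONC, so that sham replicate 2 held more than any other sample. On unique reads the log2 fold change was -0.53 (SE 0.51, edgeR, adjusted p = 0.654). The direction of Cntf therefore depended on how shared reads were counted. The neighbouring gene Zfp91, named after its values were seen, had 20.2% unique reads and a log2 fold change of -0.01 (adjusted p = 0.939). A readthrough gene covering both, U05342, was listed with an exon length of 0 and 0 reads.

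Clcf1 (chr19:4214392-4222615), whose protein signals through the CNTF receptor, had 20, 10 and 22 exon reads in sham and 32, 16 and 26 in ONC. Replicate 2 was lowest in both groups and the groups overlapped. The RPKM was 0.891 ± 0.33 in sham and 1.19 ± 0.382 in ONC (SD, n = 3 each). The log2 fold change was 0.29 (SE 0.5, 95% interval -0.76 to 1.34, edgeR, adjusted p = 0.822), and the interval held both a fall and a rise of more than 1.5-fold.

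Among the receptor chains, Osmr (chr15:6813577-6874313) differed most. It had 176, 186 and 133 exon reads in sham and 240, 262 and 253 in ONC. The RPKM was 1.58, 1.61 and 1.12 in sham and 1.96, 2.18 and 2.02 in ONC, with means of 1.44 ± 0.272 and 2.05 ± 0.112 (SD, n = 3 each). The ONC samples were all above the sham samples, of which replicate 3 was lowest.

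The fold change of Osmr was 1.32 (95% interval 1.05 to 1.65, log2 0.40, SE 0.15). Its unadjusted p of 0.0187 became an adjusted p of 0.188 in edgeR's test, above the FDR limit. An unadjusted p under 0.05 was found for 2 of the 7 tested members (Osmr and Stat3) and for 16.7% of all genes tested. Both genes also had every ONC sample above every sham sample in TMM-normalized counts, which held for 11.0% of all genes tested in this direction. No tested member lay in the opposite order, while 21.8% of all genes showed groups without overlap in either direction.

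Lifr (chr15:7129572-7197489) had an RPKM of 7.61, 9.21 and 6.02 in sham and 7.75, 7.83 and 6.63 in ONC. The groups overlapped fully, with means of 7.61 ± 1.6 and 7.4 ± 0.669 (SD, n = 3 each). The log2 fold change was -0.16 (SE 0.1, 95% interval -0.36 to 0.04, edgeR, adjusted p = 0.44).

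Il6st (chr13:112464070-112506860), the chain that all these cytokines share, had an RPKM of 15.1, 15.0 and 12.4 in sham and 17.4, 14.2 and 14.8 in ONC. The groups overlapped, with means of 14.1 ± 1.52 and 15.4 ± 1.73 (SD, n = 3 each). The log2 fold change was 0.01 (SE 0.08, edgeR, adjusted p = 0.965), and the 95% interval of the fold change ran from 0.893 to 1.14.

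To compare receptor chains without any scaling between libraries, ratios of reads per exon base were formed within each sample. The 6 ratios were chosen after the data were seen. Osmr per Lifr was 0.208, 0.174 and 0.187 in sham and 0.253, 0.278 and 0.304 in ONC. All ONC ratios were above all sham ratios, and the mean log2 ratio was higher by 0.55 (1.47-fold, exact permutation test, two-sided p = 0.1, adjusted p = 0.3 over the 6 ratios). With 3 samples against 3 this test cannot go below 0.1.

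Osmr per Il6st likewise did not overlap. It was 0.105, 0.107 and 0.0907 in sham and 0.113, 0.154 and 0.137 in ONC (log2 difference 0.40, exact permutation test, p = 0.1, adjusted p = 0.3). Lifr per Il6st overlapped (log2 difference -0.15, exact permutation test, p = 0.5, adjusted p = 0.6).

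**Figure D2:**
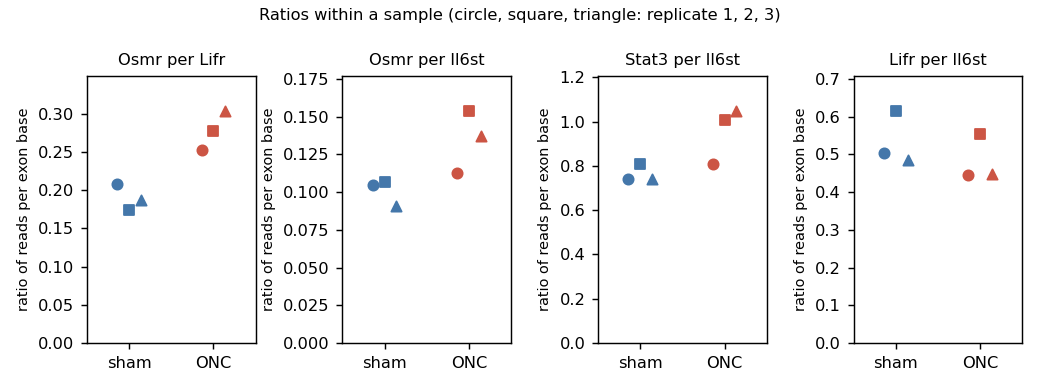
Ratios of reads per exon base between pairs of genes (vertical axes, from 0) in each sham and ONC sample, with one point per sample. Osmr per Lifr was 0.174 to 0.208 in sham and 0.253 to 0.304 in ONC without overlap, whereas Lifr per Il6st and Stat3 per Il6st overlapped.

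Stat3 (chr11:100886810-100939511), the transcription factor that gp130 receptors activate, had 1151, 1300 and 1011 exon reads in sham and 1595, 1594 and 1810 in ONC. The RPKM was 11.2, 12.1 and 9.21 in sham and 14.0, 14.3 and 15.6 in ONC, with means of 10.8 ± 1.47 and 14.6 ± 0.81 (SD, n = 3 each). Every ONC sample was above every sham sample. Sham replicate 3 was lowest and ONC replicate 3 was highest.

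The log2 fold change of Stat3 was 0.32 (SE 0.08, edgeR, adjusted p = 0.0258). As a fold change this was 1.25 with a 95% interval of 1.11 to 1.4, so that the upper bound lay below the 1.5-fold limit for a DEG. Stat3 was the 1 member of 7 with an FDR under 0.1, against 6.09% of all genes tested in either direction and 2.38% in the upward direction. The call rested on both of those samples, since the adjusted p was 0.173 without ONC replicate 3 and 0.184 without sham replicate 3.

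**Figure D3:**
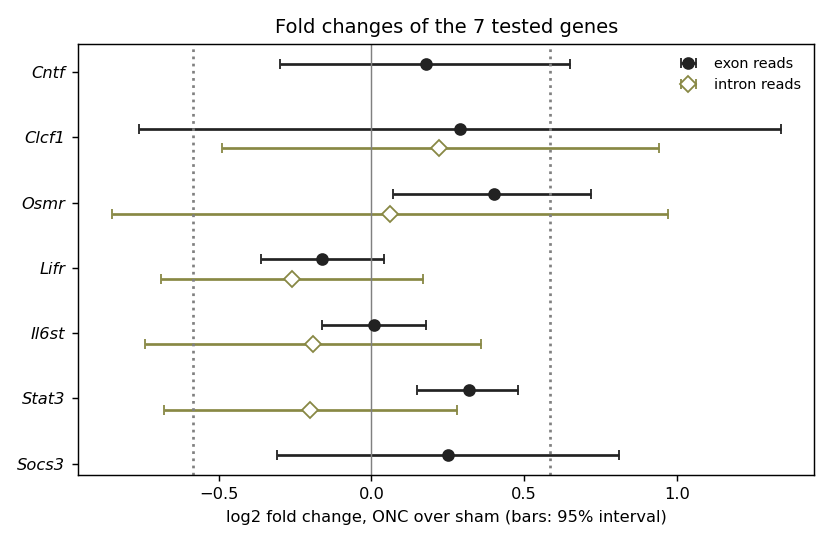
Log2 fold change of ONC over sham (horizontal axis) of the 7 tested members on exon reads (filled circles) and, where tested, on intron reads (open diamonds), with 95% intervals from edgeR and dotted lines at 1.5-fold either way. The exon intervals of Stat3 (0.15 to 0.48) and Osmr (0.07 to 0.72) lie above 0, and all intron intervals include 0.

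Reads on introns, taken as gene reads minus exon reads, can come from unspliced transcripts and were tested separately. Their origin was not tested. The difference seen for Stat3 on exons was not seen on introns. Stat3 had 192, 136 and 165 intron reads in sham and 112, 122 and 195 in ONC, which overlapped, with a log2 fold change of -0.2 (SE 0.22, 95% interval -0.68 to 0.28, edgeR, adjusted p = 0.699). Osmr had 24, 26 and 33 intron reads in sham and 25, 23 and 37 in ONC, with a log2 fold change of 0.06 (SE 0.43, adjusted p = 0.959). None of the 5 members tested on introns (Clcf1, Osmr, Lifr, Il6st and Stat3) was called by edgeR, beside 2.61% of 13391 genes. With so few members, this does not set them apart from that share. None of them had an unadjusted p under 0.05 either, a limit that was not counted over all genes on introns. DESeq2 gave an adjusted p for Lifr, Il6st and Stat3 only and called none of them.

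Exon reads per intron read were 5.99, 9.56 and 6.13 for Stat3 in sham and 14.2, 13.1 and 9.28 in ONC. The groups overlapped, and the log2 difference was 0.77 (exact permutation test, p = 0.2). Over all genes together this ratio was also higher in ONC, at 3.15, 3.27 and 2.43 in sham and 3.97, 4.11 and 3.65 in ONC (log2 difference 0.42, exact permutation test, p = 0.1). The part of this shift between libraries in the result for Stat3 was not tested.

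Socs3 (chr11:117966079-117969366), the inhibitor induced by STAT3, had 66, 69 and 63 exon reads in sham and 64, 90 and 120 in ONC. The RPKM was 1.05, 1.05 and 0.942 in sham and 0.926, 1.32 and 1.69 in ONC, with means of 1.02 ± 0.0638 and 1.31 ± 0.384 (SD, n = 3 each). ONC replicate 1 lay just below the sham samples, while the other 2 ONC samples lay above it. The log2 fold change was 0.25 (SE 0.27, 95% interval -0.31 to 0.81, edgeR, adjusted p = 0.688). Without ONC replicate 3 it was 0.02, and without ONC replicate 1 it was 0.43 (SE 0.27, adjusted p = 0.348).

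The transcripts nearest to Socs3 in pattern were sought among 11884 genes whose mean RPKM exceeded 1 in sham or in ONC. Members, pathway genes such as the STAT3 targets, and cell type markers were left out of this search. Likeness was the root mean square difference over the 6 samples in log2 TMM-normalized counts, after each gene's sham mean was subtracted. The 5 nearest were Ip6k2 (0.0692), Shpk (0.0749), Mfsd10 (0.0892), Iqgap2 (0.0905) and Amdhd2 (0.0954). As a result of this choice, all 5 followed the order of Socs3 among the ONC samples, lowest in replicate 1 and highest in replicate 3. Ip6k2, for example, had 2599, 2730 and 2308 exon reads in sham and 2412, 3803 and 4580 in ONC.

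Over the 7 tested members, none was a DEG, whereas 1.66% of all genes tested were. None was called by the DESeq2 Wald test or by limma on log2 RPKM either. Of the 7 log2 fold changes, 6 were above 0, with a median of 0.25, beside 52.3% above 0 and a median of 0.01 over all genes tested. Under the scaling of RPKM, which shifted the median of all genes to 0.131, the median of the members was 0.37 and Lifr was still below 0.

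The rest of the pathway was read from 5 lists of 58 genes, of which 45 were tested. None was a DEG and none had an FDR under 0.1 in edgeR's test. The DESeq2 Wald test called 0 of them. An unadjusted p under 0.05 was found for 4 of the 45, among them Gfap, Serpina3n and Vim, beside the 16.7% of all genes. The log2 fold changes had a median of 0.08, with 31 above 0 and 14 below. Pathway genes other than the 9 members are named here with values that were seen before they were chosen.

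Of 7 other ligands of the family, Ctf1 and Ebi3 were tested. Ebi3, a subunit of IL-27, had a log2 fold change of -1.21 (SE 0.62, adjusted p = 0.341) from 44 sham and 22 ONC reads, of which 28.8% were unique. The unique reads were 3, 3 and 3 in sham and 5, 2 and 3 in ONC and did not show the fall. Ebi3 passed the expression filter through its sham mean alone (RPKM 0.528, against 0.247 in ONC). Osm, the ligand of Osmr, was too low to be tested, as were others such as Il11, Ctf2 and Il27. Of 5 other receptor chains, Cntfr, the CNTF binding chain, and Il11ra1 were tested and both had a log2 fold change of 0.03 (adjusted p = 0.893 and 0.94). Cntfr had an RPKM of 13.4 to 15.6 in sham and 15.4 to 17.5 in ONC, near that of Il6st. Il6ra, the IL-6 binding chain, was below the filter with 69 reads over the sham samples and 32 over the ONC samples. Its RPKM was 0.247, 0.412 and 0.208 in sham and 0.047, 0.216 and 0.115 in ONC. Il27ra and Il31ra were also not tested.

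JAK kinases and the other STATs had 9 tested genes of 10, all but Stat4. Jak1 (log2 fold change -0.02, SE 0.06, adjusted p = 0.895) and Jak2 (0.05, SE 0.09, adjusted p = 0.832), the kinases bound to gp130, differed little. Over the list, 7 log2 fold changes were above 0 and the median was 0.09.

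Of 14 other negative regulators, 13 were tested and Socs1 was not. Their log2 fold changes ran from -0.17 to 1.1 with a median of -0.01, and 6 were above 0. The highest was Ptpn6, a phosphatase of blood cells and of microglia, with 23 reads over the sham samples and 58 over the ONC samples (log2 fold change 1.1, SE 0.59, adjusted p = 0.363). Ptpn6 passed the expression filter through its ONC mean alone (RPKM 0.317, against 0.134 in sham), which favours a high fold change. Pias3, a binding inhibitor of STAT3, had an RPKM of 28.4 to 30.3 in sham and 34.4 to 36.2 in ONC without overlap (log2 fold change 0.13, SE 0.07, adjusted p = 0.312).

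Known STAT3 targets had 19 tested genes of 22, with Bcl3, Icam1 and Birc5 below the filter. Their median log2 fold change was 0.2, with 16 above 0 and a range of -0.08 to 0.99. The highest was Myc, which passed the filter through its ONC mean alone (RPKM 0.152 in sham and 0.328 in ONC). Vim, an intermediate filament of Müller glia and astrocytes, had an RPKM of 51.7, 47.6 and 46.9 in sham and 59.4, 62.3 and 59.2 in ONC, with a log2 fold change of 0.18 (SE 0.06, adjusted p = 0.112). Gfap, the filament that reactive glia accumulate, had 4.35, 6.06 and 4.42 in sham and 6.31, 8.19 and 6.27 in ONC, with a log2 fold change of 0.36 (SE 0.12, adjusted p = 0.126). Neither passed the FDR in this test, and each had an FDR under 0.1 in 7 of 17 alternative analyses (adjusted p from 0.0213 to 0.481 for Gfap and from 0.0129 to 0.376 for Vim).

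**Figure D4:**
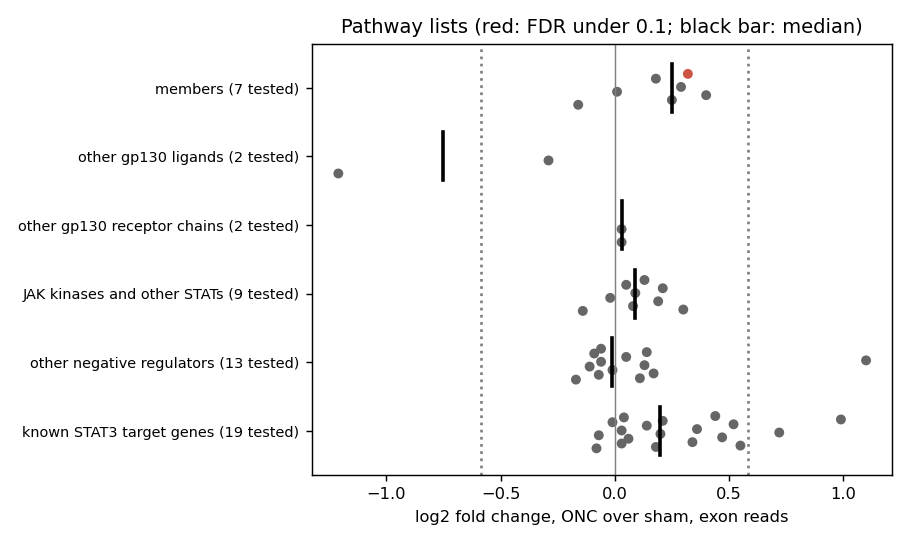
Log2 fold change of ONC over sham on exon reads (horizontal axis) of each tested gene in the member list and the 5 pathway lists, with a black bar at each median and dotted lines at 1.5-fold either way. One point, Stat3, has an FDR under 0.1, and the medians of the members (0.25) and of the STAT3 targets (0.2) lie above 0.

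Socs3 shared its spread among ONC samples with some STAT3 targets. Serpina3n, a protease inhibitor of reactive astrocytes, had an RPKM of 5.38, 4.18 and 4.35 in sham and 4.23, 8.85 and 7.91 in ONC. Lcn2, an acute phase protein, had 4.13, 3.33 and 4.65 in sham and 3.94, 6.64 and 7.46 in ONC. In both, ONC replicate 1 lay within the sham range and the other 2 ONC samples lay above it.

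Of Socs3 and the 19 tested targets together, 6 of 20 (Socs3, Myc, Timp1, Lcn2, Serpina3n and A2m) had ONC replicate 1 no higher than the highest sham sample and both other ONC samples above it in TMM-normalized counts. The same was found for 9.03% of all genes tested. The pattern was defined after the data were seen, with Socs3 among the genes that gave it, and was not tested. Myc and Timp1 passed the expression filter through their ONC mean alone (RPKM 0.328 and 0.426, against 0.152 and 0.237 in sham). The count is therefore not a fair comparison with the share over all genes. Stat3 and Osmr did not show the pattern, with ONC replicate 1 above all sham samples.

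Without ONC replicate 1, Serpina3n was a DEG (log2 fold change 0.71, SE 0.14, edgeR, adjusted p = 0.000935) and Lcn2 had an FDR under 0.1 (0.66, SE 0.24, adjusted p = 0.0745). With it, their adjusted p was 0.218 and 0.394. These genes were named because ONC replicate 1 was low in them, so that a larger fold change without it followed from the choice. DEGs over all genes numbered 227 with ONC replicate 1 and 353 without it. ONC replicate 1 was also the ONC sample farthest from the others over all genes, with a chi-square per degree of freedom of 13.7 and 10.8 against ONC replicates 2 and 3, which differed by 4.54 from each other.

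**Figure D5:**
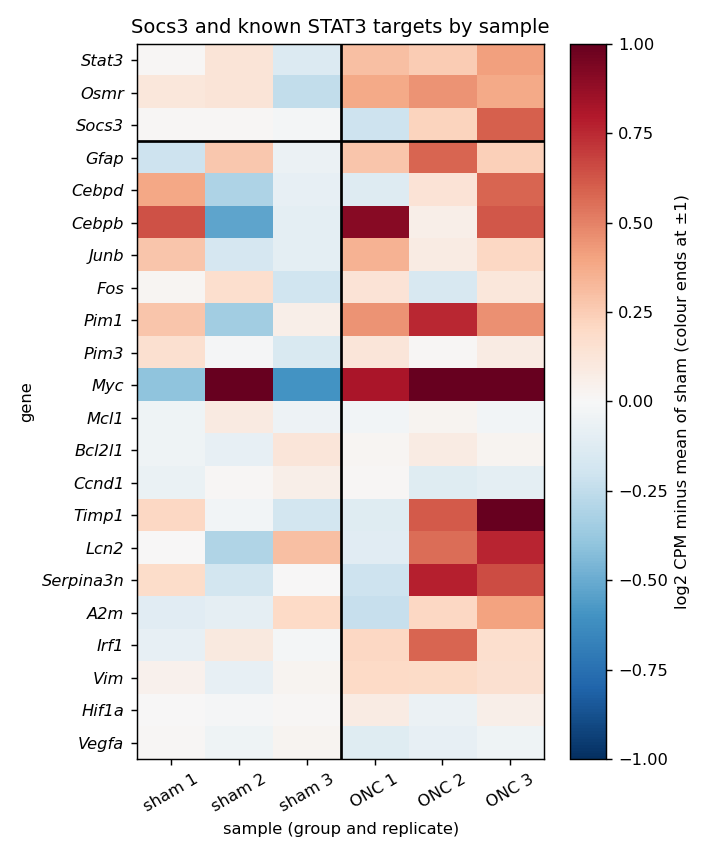
Log2 TMM-normalized counts per library size (CPM) minus the mean of the sham samples (colour, ending at ±1) for Stat3, Osmr and Socs3 above the line and the 19 tested STAT3 targets below it, in each sham and ONC sample. Stat3 and Osmr are above the sham mean in all 3 ONC samples, whereas Socs3, Timp1, Lcn2, Serpina3n and A2m are below it in ONC replicate 1 and above it in ONC replicates 2 and 3.

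In whole retina, a change in the number of cells of a type and a change of RNA per cell cannot be told apart. The photoreceptor markers that define the labelled tissue had a summed RPKM of 16200 to 16800 in sham and 16900 to 18300 in ONC. Summed RPKM was also higher in ONC over all genes tested, at 263000 to 284000 in sham and 296000 to 309000 in ONC. The median log2 fold change of the photoreceptor markers was 0.02. They had no DEG among 8, with 1 FDR under 0.1 (Pde6b, log2 fold change 0.18, adjusted p = 0.034). Of 8 RGC markers, 7 had an FDR under 0.1 and were lower in ONC, of which 5 were called downregulated, while Slc17a6 was higher (log2 fold change 0.26, adjusted p = 0.0525). Over the list, the summed RPKM was 395 to 412 in sham and 293 to 303 in ONC. Of 10 tested microglia and macrophage markers, 3 were called upregulated (summed RPKM of all 11 listed 12.0 to 16.3 in sham and 22.5 to 26.5 in ONC). Markers of Müller glia and astrocytes had no DEG among 11 tested. Their median log2 fold change was -0.0, with 5 above 0 and 6 below. The 1 with an FDR under 0.1 was Clu, which was higher in ONC (log2 fold change 0.35, adjusted p = 0.000386). Endothelial, pigment epithelium and oligodendrocyte markers had no DEG among 5, 5 and 2 tested. Of 4 tested neutrophil and red cell markers, Hba-a1 was called downregulated, the summed RPKM was 76 to 173 in sham and 57.3 to 86.6 in ONC, and Mpo had 0 reads in all samples. The part of these shifts in the results for Stat3, Osmr and Ptpn6 was not tested.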

How the data were processed

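The authors mapped the reads of each sample with CLC Genomics Workbench and deposited raw read counts for the exons and the whole span of each gene, as total and unique reads, with no normalization. RPKM values deposited by the authors are exon reads divided by exon length and by all reads mapped to genes. An ONC mean RPKM column of the authors in 1 table was not used. The labels name the build mm9, whereas the deposited positions match GRCm38. Intron reads were taken as gene reads minus exon reads.

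Genes whose mean RPKM exceeded 0.3 in sham or in ONC were compared by edgeR 4.0.16 (TMM, glmQLFit and glmQLFTest, R 4.3.3) on total exon reads, with a single term for ONC against sham and adjusted p-values by Benjamini-Hochberg. Introns were tested likewise after filterByExpr. SE was the log2 fold change divided by the square root of F. Single measures were compared by two-sided exact permutation tests (scipy 1.17.1). Procedures were tested on simulated counts. Alternatives were DESeq2 1.42.0, limma 3.58.1 with pseudocounts of 0.1 and 1, other scalings, filters and read types, a replicate block, and leaving out each sample.

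The members and lists were chosen with earlier results of these data known. All 9 members are named. Of the other pathway genes, those with an FDR under 0.1 were to be named with values and untested ones by name, and those named beyond this were chosen after their values were seen. Some genes of the lists are counted but not reported by name here. Groups and replicate numbers were taken from the labels. Samples with the same number in both groups showed no shared deviation (correlation of deviations -0.047, -0.033 and 0.003). These values cannot tell whether such samples were handled as pairs.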

Additional observations from a re-analysis of the deposited data

How the results depend on the processing

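Exon results were recomputed under 17 alternatives. Over 22 single values and 279 recomputed values, 2 came to pass the DEG limits (both Serpina3n) and 5 log2 fold changes changed sign. These were Cntf on unique exon reads (log2 fold change -0.53), Clcf1 without sham replicate 2 (-0.01), Il6st without ONC replicate 1 (-0.1) and without sham replicate 3 (-0.04), and Osmr intron reads without ONC replicate 3 (-0.06). With single samples left out, the log2 fold change ran from -0.01 to 0.52 for Clcf1, from -0.1 to 0.08 for Il6st and from -0.06 to 0.18 for Osmr introns. The log2 difference of Socs3 per Stat3 (-0.11, exact permutation test, p = 0.8, adjusted p = 0.8) was 0.09 without ONC replicate 1. Stat3 kept an FDR under 0.1 in 15 of 17 alternatives, with a log2 fold change of 0.25 to 0.44. Osmr passed the FDR with the scaling of RPKM only (log2 fold change 0.51, adjusted p = 0.0619), so that 2 members had an FDR under 0.1 there. Leaving out single samples gave 0 to 1 such members. With no fold threshold, 1 member was called.

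Pathway genes called numbered 1 with limma on log2(RPKM + 0.1), 1 with the scaling of RPKM, and 0 to 2 when single samples were left out, with 2 without ONC replicate 1. DEGs over all genes numbered 227, with 350 under the scaling of RPKM, 349 on total gene reads, 833 with no fold threshold, and 153 to 353 when single samples were left out. The causes were not tested. With the replicate number as a block, DEGs numbered 222, of which 209 were shared, and Stat3 had an adjusted p of 0.04. The block changed no call of a member. Genes with few reads (Lif, Il6, Clcf1) are limited by depth.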
